A study of Drosophila melanogaster with 6 samples.

Results

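The genes described here act in the secretory pathway of the endoplasmic reticulum (ER) or in the response to ER stress. They were chosen by name from a list of 36 genes. This rule uses no measured value, but the list was drawn up with earlier results of these data known. Of the 36, 33 were found under the listed spelling among the 17558 genes of the deposited tables. *Calr*, which encodes the chaperone calreticulin, is listed in the tables as *Crc*. With upper and lower case ignored, that row matched another listed name, *crc*, which is the gene of the transcription factor ATF4. The row was recognized as *Calr* by gene identifier. These 34 genes are the members. *Stt3A* and *Stt3B* appear in the tables under older symbols (*CG1518* and *OstStt3*) and were recognized by gene identifier, so their values are given apart and enter no count. A row named *SIP3* (FBgn0061196) also matched *sip3* when case was ignored, but it is a different gene on chromosome X with a total of 2 counts and was set aside.

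RNA was measured in fat body cells dissociated from abdominal carcasses of adult *Drosophila melanogaster* females, in 3 *Luc* control RNAi libraries and 3 libraries labelled *svp* RNAi. The labels name the genotype of the controls only as wild type, whereas the paper describes females that carried a hairpin against firefly luciferase (*UAS-Luc*). Both groups were *y w* and carried *PromE800-Gal4*, *tub-Gal80ts* and *3.1Lsp2-Gal4*, which drive a hairpin in oenocytes and adipocytes, and the other group carried *UAS-svp* (line GD1546) in place of *UAS-Luc* (line JF01355). Gal80ts held the drivers silent at 18°, through development and for the first 3 days of the experiment, when the females (0 to 2 days old at its start) were housed with *y w* males. The hairpins were then induced by 5 days at 29°, and carcasses of 100 females per genotype were pooled. The replicates are therefore pools of animals and not single animals. The paper speaks of 3 independent experiments, but does not say whether libraries with the same number came from the same experiment.

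Proteins that are to be secreted enter the ER through the Sec61 channel, are trimmed by signal peptidase, receive N-linked sugars and fold with the help of chaperones, and leave in vesicles with a COPII coat. Misfolded proteins are returned to the cytosol for degradation, and their accumulation activates the sensors Ire1, PEK (PERK) and Atf6 of the unfolded protein response. The fat body, the counterpart of liver and adipose tissue in flies, secretes yolk proteins, lipoproteins, storage proteins and immune peptides into the hemolymph, and its cells depend on this machinery.

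Library totals ranged from 15648948 to 19476599 fragments counted on genes, and the TMM scaling factors of edgeR ranged from 0.824 to 1.39. Levels in CPM below are counts scaled to the library total multiplied by this factor, and the authors' FPKM are relative to gene length and to the library total alone. Markers of the adult fat body were abundant, with 9 of 10 detected and a summed level between 58895 and 182713 CPM, but *Pepck* had 0 counts in every library. *Luc* control RNAi replicate 1 stood apart, with the lowest fat body and oenocyte marker levels and the highest midgut marker level of the 6 libraries, and it had the highest TMM factor. The targeted gene *svp* was at 61.8 ± 28.5 CPM (SD, n = 3) in the controls and 78.8 ± 10.4 CPM (SD, n = 3) in the other group. The counts of the gene were thus not lower in the *svp* RNAi group, and directions below are between labelled groups. Whether these counts include reads from the hairpin was not tested. The low control mean came from *Luc* control RNAi replicate 1 (28.9 CPM), since the other controls (77.5 and 79.0 CPM) lay within the range of the *svp* RNAi group (67.1 to 86.9 CPM). In bulk samples of this kind, fewer cells of a type and less RNA per cell cannot be told apart.

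The members were abundant transcripts. Their mean FPKM over all libraries ranged from 9.84 for *Edem1* to 339 for *Calr*, with a median of 63.8, whereas the median over the 9277 genes tested was 11.9. Of the 33 members that passed edgeR's filter on low counts, 32 lay above that median and 13 lay in the highest decile of the genes tested. The member that did not pass the filter was *Spase12*, with 0 counts in all 6 libraries. The highest levels belonged to *Calr* (339 FPKM), *crc* (333 FPKM), *Pdi* (331 FPKM), *Hsc70-3* (285 FPKM) and *ERp60* (231 FPKM), that is, to 4 folding genes and to the transcription factor ATF4.

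**Figure D1:**
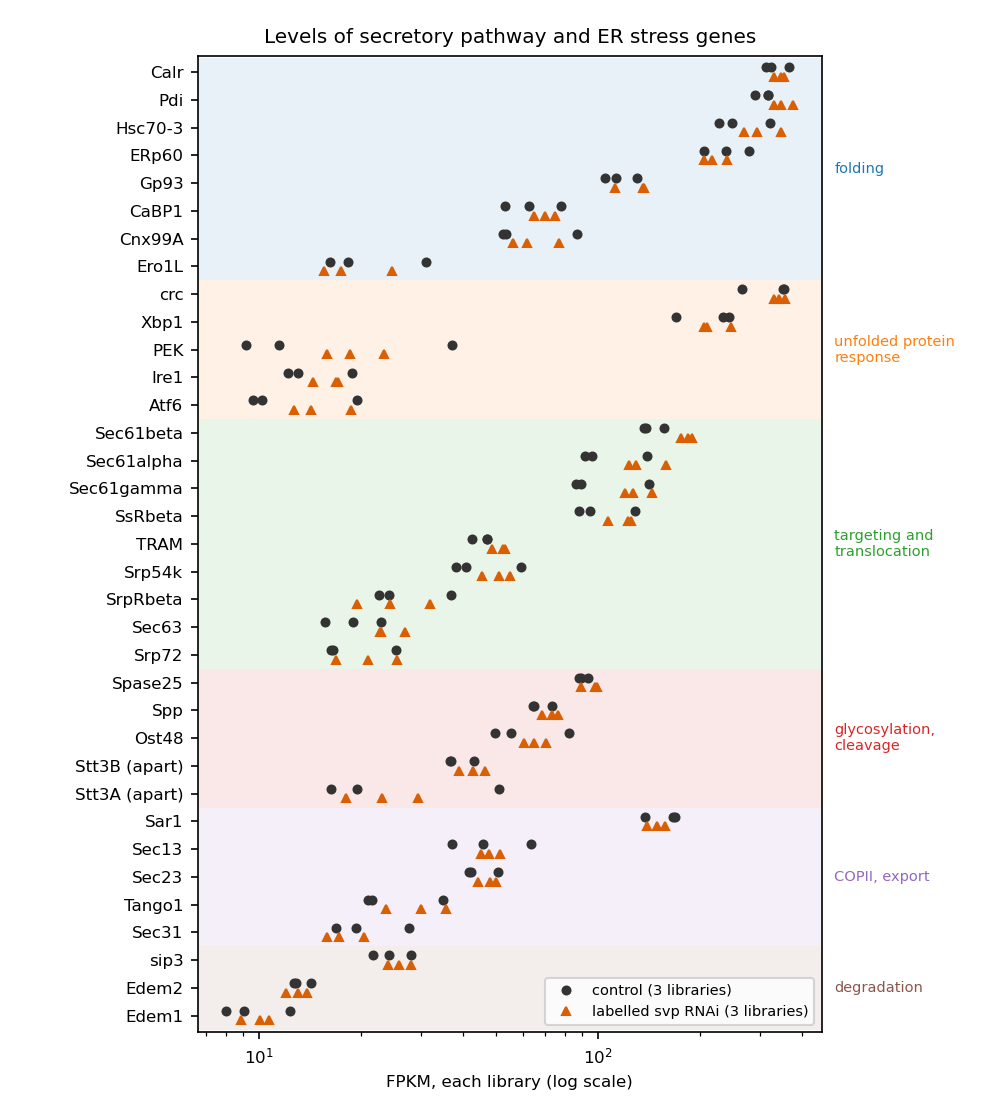
FPKM of each tested gene in each library on a log axis, with circles for the 3 *Luc* control RNAi libraries and triangles for the 3 libraries labelled *svp* RNAi, grouped by role and ordered by mean level. Values span from about the level of *Edem1* (mean 9.84) to that of *Calr* (mean 339), and circles and triangles are interleaved for most genes.

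The first question was whether these genes differed between the groups, gene by gene. In edgeR's quasi-likelihood test with Benjamini-Hochberg adjustment, 0 of the 33 members tested had an adjusted p under 0.05, where 0.097% of all genes tested did (9 of 9277, with 0.0216% higher and 0.0755% lower in the libraries labelled *svp* RNAi). An unadjusted p under 0.05 was found for 0 members, and for 4.99% of all genes tested. Without *Luc* control RNAi replicate 1 it was found for 1 member, against 13.7% of all genes in that edgeR fit. DESeq2 also called 0 members, against 1.29% of its genes (0.544% higher), and edgeR without *Luc* control RNAi replicate 1 called 0 members, against 0.641% (0.168% higher). limma with sample quality weights, which down-weights libraries that stand apart, was chosen after seeing the data. The weights of *Luc* control RNAi replicates 1 to 3 were 0.138, 0.570 and 3.40. Those of *svp* RNAi replicates 1 to 3 were 1.57, 0.535 and 4.46, so that replicate 3 weighed most in each group. With these weights limma called 0 members where it called 6.51% of all genes tested (1.4% higher). An unadjusted p under 0.05 was found for 7 members in that limma fit, against 26.6% of all genes tested. In that fit 23 of the 33 members lay below 0, whereas 50.8% of all genes tested lay above 0. In the edgeR fit to all libraries the smallest unadjusted p among the members was 0.112, for *Sec61gamma*, and every adjusted p was 1.00.

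The fitted log2 fold changes of the members, each the libraries labelled *svp* RNAi relative to the *Luc* control RNAi libraries, were small. They ranged from -0.28 for *Sec31* to 0.31 for *Sec61alpha*, with a median of 0.05, and the median over all genes tested was -0.06. Of the members, 22 lay above 0 and 11 below, whereas 40.9% of all genes tested lay above 0. This balance rested on single libraries. Without *Luc* control RNAi replicate 1, 15 members lay above 0 (median -0.04), against 54.6% of all genes in that fit (median 0.05). Without *svp* RNAi replicate 2, 13 members did (median -0.03), against 47.4% of all genes in that fit (median -0.02). For all 33 members the 95% interval of the log2 fold change, taken from edgeR's SE, included 0 and stayed between -1 and 1. The widest excursions were to -0.96 for *Xbp1* and 0.95 for *PEK*. A change beyond 2 in fold therefore lay outside the interval of each member, whereas smaller changes could not be told from the spread between libraries. Over all genes tested, 48.4% had an interval within these bounds.

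CPM of the groups did not overlap for 4 members, 3 of them higher and 1 lower in the libraries labelled *svp* RNAi, where the shares over all genes tested were 9.32% in all, 4.51% higher and 4.82% lower. With the authors' FPKM, which are scaled to library totals alone, 3 members did not overlap, and for all genes tested the share was 12.1%. The members were different ones, since *Sec61alpha*, *Sec61gamma*, *Tango1* and *Sec31* did not overlap in CPM, whereas *Pdi*, *Sec61beta* and *TRAM* did not overlap in FPKM.

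The ER chaperones and folding enzymes form the first group, with 8 members. None of them had a log2 fold change beyond 0.18 in size, and their median was 0.04. *Hsc70-3* (FBgn0001218; chromosome X from 11801696 to 11807117 on BDGP6) encodes BiP, the Hsp70 chaperone of the ER lumen, whose transcript is a classical readout of ER stress. It had 715, 910 and 845 CPM in *Luc* control RNAi replicates 1 to 3 and 937, 1016 and 802 CPM in the libraries labelled *svp* RNAi. The groups overlapped, and the log2 fold change was 0.16 (adjusted p = 1.00 in edgeR, standard error, SE, 0.23), with a 95% interval from -0.38 to 0.70.

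*Calr* (FBgn0005585; chromosome 3R from 9628691 to 9630851) had 411, 604 and 589 CPM in the controls and 475, 618 and 499 CPM in the libraries labelled *svp* RNAi. Calreticulin and calnexin, the product of *Cnx99A*, are lectin chaperones that bind newly made glycoproteins. The log2 fold change of *Calr* was -0.01 (95% interval -0.59 to 0.57), and its lowest library was *Luc* control RNAi replicate 1. For *Cnx99A*, the 3 controls were within 156 and 159 CPM and the other libraries within 149 and 169 CPM, the most even pattern among the folding genes.

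*Pdi*, *ERp60* and *CaBP1* encode protein disulfide isomerases, which form and rearrange disulfide bonds, and *Ero1L* encodes the oxidase that recharges them. *Pdi* (FBgn0014002; chromosome 3L from 15137738 to 15142840) had 464, 838 and 851 CPM in the controls and 674, 932 and 708 CPM in the libraries labelled *svp* RNAi. The spread among the controls (SD 220) was larger than the difference between the group means (718 and 771 CPM), and the log2 fold change of 0.10 became -0.10 without *Luc* control RNAi replicate 1. In FPKM, by contrast, *Pdi* was between 292 and 318 in the controls and between 331 and 378 in the other group, so that the groups did not overlap. *ERp60* (FBgn0033663; chromosome 2R from 11887568 to 11890979) had 365, 517 and 451 CPM against 383, 439 and 361 CPM, a log2 fold change of -0.17 (95% interval -0.69 to 0.35).

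*Ero1L* (FBgn0261274; chromosome 3L from 4170404 to 4173789) was the least abundant folding gene, with a mean of 20.6 FPKM, and had the lowest log2 fold change of the group, at -0.18 (95% interval -0.64 to 0.27). Its levels were 47.2, 45.8 and 41.2 CPM in the controls and 45.9, 36.5 and 35.7 CPM in the libraries labelled *svp* RNAi. Only *svp* RNAi replicate 1 reached the range of the controls. *Gp93*, which encodes the Hsp90 chaperone of the ER, and *CaBP1* had log2 fold changes of 0.10 and 0.09.

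Among the 5 sensors and transcription factors of the unfolded protein response, 3 varied widely between libraries (*Xbp1*, *crc* and *PEK*). The median ratio of the highest to the lowest CPM was 2.21 in this group, 1.43 over all 33 members and 2.29 over all genes tested. Among the 3 controls the median SD of log2 CPM was 0.66 for this group, 0.21 over all members and 0.53 over all genes tested. In the libraries labelled *svp* RNAi it was 0.14, 0.17 and 0.27. *Ire1* and *Atf6* had ratios of 1.21 and 1.42, below the median of the members.

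*Xbp1* (FBgn0021872; chromosome 2R from 21143545 to 21145750) encodes the transcription factor whose mRNA is spliced by Ire1 under ER stress, and the counts do not separate its spliced and unspliced forms. Its levels were 261, 620 and 603 CPM in the controls and 387, 590 and 433 CPM in the libraries labelled *svp* RNAi. *Luc* control RNAi replicate 1 was the lowest of all 6 libraries and the other controls were the highest. The log2 fold change was -0.07 (adjusted p = 1.00 in edgeR, SE 0.37), and leaving out *Luc* control RNAi replicate 1 gave -0.35 and leaving out replicate 2 of that group gave 0.12.

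*crc* (FBgn0000370; chromosome 2L from 21310866 to 21319527) encodes ATF4, which is translated when eIF2α is phosphorylated by PEK or GCN2, so that its activity need not follow its mRNA. It had 412, 904 and 909 CPM in the controls and 623, 851 and 709 CPM in the libraries labelled *svp* RNAi. As for *Xbp1*, *Luc* control RNAi replicate 1 was the lowest library and the other controls were the highest. The log2 fold change was -0.03 (SE 0.35), and it was -0.28 without *Luc* control RNAi replicate 1.

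*PEK* (FBgn0037327; chromosome 3R from 5458563 to 5464753) encodes the ER kinase that phosphorylates eIF2α, and it showed the opposite order. Its levels were 117, 47.7 and 60.5 CPM in the controls and 89.9, 77.5 and 78.2 CPM in the libraries labelled *svp* RNAi, with *Luc* control RNAi replicate 1 the highest and the other controls the lowest of all libraries. The log2 fold change was 0.13 (SE 0.35), and leaving out *Luc* control RNAi replicate 2 gave -0.12 and leaving out replicate 1 of that group gave 0.64. In the latter fit the edgeR adjusted p of *PEK* was 0.194, the smallest of any member there. The ratio of *PEK* to *Xbp1* counts within a library, which no scaling can change, was 0.447 in *Luc* control RNAi replicate 1, 0.0768 and 0.10 in the other controls, and between 0.131 and 0.232 in the libraries labelled *svp* RNAi. This pair was chosen after its values were seen.

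*Ire1* (FBgn0261984; chromosome 3R from 19853908 to 19861291), the sensor that splices *Xbp1* mRNA, was even, with 54.8, 62.9 and 59.5 CPM in the controls and 60.8, 65.2 and 66.2 CPM in the libraries labelled *svp* RNAi. The fitted log2 fold change was 0.12 (95% interval -0.29 to 0.52). *Atf6* (FBgn0033010; chromosome 2R from 5144733 to 5154756), a transcription factor that is released from the ER membrane by cleavage, had 44.5, 38.8 and 37.0 CPM against 52.5, 45.0 and 43.7 CPM. The lowest library labelled *svp* RNAi lay just below the highest control, and the log2 fold change was 0.23 (95% interval -0.21 to 0.67).

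The 9 members that target proteins to the ER and carry them across its membrane had the highest median of the 6 groups in the edgeR fit to all libraries. Of these, 8 had a fitted log2 fold change above 0, with a median of 0.17, but 0 had an unadjusted p under 0.05. The summed level of the group was 719, 844 and 891 CPM in the controls and 943, 1040 and 882 CPM in the libraries labelled *svp* RNAi, so that *svp* RNAi replicate 3 lay within the range of the controls. In the 6 fits that each left out 1 library, this median was between 0.13 and 0.27. With sample quality weights it was 0.07, below the 0.12 of the unfolded protein response group.

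The Sec61 channel is built from 3 subunits, whose log2 fold changes over all 6 libraries were close to each other. Without *Luc* control RNAi replicate 1 they were 0.29 for *Sec61alpha*, 0.17 for *Sec61beta* and 0.32 for *Sec61gamma*, and with sample quality weights 0.13, 0.07 and 0.22. *Sec61alpha* (FBgn0086357; chromosome 2L from 6477182 to 6480575), which forms the pore, had 210, 227 and 242 CPM in the controls and 292, 302 and 248 CPM in the libraries labelled *svp* RNAi. Every library of the latter group was above every control, by a narrow margin for replicate 3, and the log2 fold change was 0.31 (95% interval -0.13 to 0.75, SE 0.18, adjusted p = 1.00 in edgeR). *Sec61gamma* (FBgn0031049; chromosome X from 19643327 to 19644518) had 67.8, 68.6 and 72.3 CPM against 85.0, 89.8 and 81.9 CPM. Every library of the latter group was again above every control, and the log2 fold change was 0.30 (95% interval -0.09 to 0.69, SE 0.16, adjusted p = 1.00 in edgeR). *Sec61beta* (FBgn0010638; chromosome 2R from 14618771 to 14619681) had 89.4, 131 and 131 CPM against 129, 168 and 135 CPM and a log2 fold change of 0.30 (95% interval -0.25 to 0.84), with *svp* RNAi replicate 1 within the range of the controls.

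Per length, the 3 subunits were at similar levels, with means of 123 FPKM for *Sec61alpha*, 164 FPKM for *Sec61beta* and 118 FPKM for *Sec61gamma*. The ratio of the highest to the lowest subunit within a library ranged from 1.12 in *Luc* control RNAi replicate 1 to 1.61 in *Luc* control RNAi replicate 2. The separation of single subunits depended on the scaling. In FPKM, *Luc* control RNAi replicate 1 was at 140 for *Sec61alpha* and 141 for *Sec61gamma*, within the range of the libraries labelled *svp* RNAi, whereas *Sec61beta* was between 137 and 156 in the controls and between 176 and 189 in the other group. Ovary and midgut marker levels, which differed between libraries, are given with the library patterns below, and their part in these values was not tested.

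*Sec63* (FBgn0035771; chromosome 3L from 7360561 to 7364366), whose product recruits BiP to the channel, had 48.7, 55.1 and 67.6 CPM in the controls and 70.2, 75.6 and 64.9 CPM in the libraries labelled *svp* RNAi, a log2 fold change of 0.30 (95% interval -0.18 to 0.77). In the reference annotation 60.7% of its exon bases are shared with *CR45835* on the opposite strand, which had at most 4 counts in any library. How reads in that stretch were assigned is not given in the sources used here. Of the protein-coding genes whose exon bases are all shared in this way, 96.9% had 0 counts in every library (see *Spase12* below). Reads in the shared stretch may therefore be missing from the counts of both genes, and the CPM and FPKM of *Sec63* may be too low. *SsRbeta* (a subunit of the translocon-associated complex) and *TRAM* (a membrane protein beside the channel) had log2 fold changes of 0.17 and 0.11, and that of *TRAM* was -0.04 without *Luc* control RNAi replicate 1.

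The signal recognition particle, which brings ribosomes to the ER, and its receptor were represented by *Srp54k*, *Srp72* and *SrpRbeta*. *SrpRbeta* (FBgn0011509; chromosome 3L from 8718949 to 8720225) was the only translocation member below 0, with 28.3, 30.8 and 29.0 CPM in the controls and 30.0, 23.1 and 25.1 CPM in the libraries labelled *svp* RNAi. The fitted log2 fold change was -0.17 (95% interval -0.62 to 0.28), and *svp* RNAi replicate 1 lay within the controls. *Srp54k* and *Srp72* had log2 fold changes of 0.11 and 0.09.

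For N-glycosylation and signal peptide cleavage, 3 of 4 members were tested, and their fitted differences between the groups were close to 0. *Ost48*, a subunit of oligosaccharyltransferase, *Spase25*, a subunit of signal peptidase, and *Spp*, which encodes signal peptide peptidase, had log2 fold changes of 0.05, 0.01 and 0.05. The widest of their 95% intervals was that of *Spase25*, from -0.62 to 0.63. *Spase25* and *Spp* varied more between libraries than the median member, with ratios of the highest to the lowest CPM of 1.74 and 1.56, and without *Luc* control RNAi replicate 1 their log2 fold changes were -0.17 and -0.08.

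*Stt3A* and *Stt3B* encode alternative catalytic subunits of oligosaccharyltransferase and are not counted among the members. *Stt3A* (FBgn0031149; chromosome X from 21049885 to 21053937) had 100, 52.9 and 64.0 CPM in the controls and 70.6, 55.0 and 60.9 CPM in the libraries labelled *svp* RNAi, with a log2 fold change of -0.22 (95% interval -0.88 to 0.44) that was 0.13 without *Luc* control RNAi replicate 1. *Stt3B* (FBgn0011336; chromosome 3R from 25066712 to 25069637) had 84.3, 119 and 120 CPM against 102, 141 and 102 CPM, a log2 fold change of 0.09 (95% interval -0.46 to 0.65). Counts of *Stt3A* exceeded those of *Stt3B* only in *Luc* control RNAi replicate 1, where the ratio was 1.19, and the ratio was between 0.390 and 0.690 in the other 5 libraries.

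*Spase12* (FBgn0040623; chromosome 3R from 29490544 to 29491150), a subunit of signal peptidase, was listed at 0 counts in all 6 libraries, which allows up to 3 counts per library or between 0.128 and 0.215 CPM for counting error alone. All of its 493 exon bases lie within exons of *CG2006*, which runs on the opposite strand and had between 56 and 108 counts per library. The same held across the annotation. Of the 64 protein-coding genes whose exon bases are all shared with genes of the opposite strand only, 62 had 0 counts in every library (96.9%), and of the 9184 protein-coding genes that share no exon base, 15.3% did. The level of *Spase12* therefore cannot be read from these counts, and the other subunit among the members, *Spase25*, had a mean of 93.0 FPKM with 21 of its exon bases shared.

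The COPII coat and its partners, which form the vesicles that leave the ER, had a median log2 fold change of -0.03 over 5 members and included both directions. *Sec31* (FBgn0033339; chromosome 2R from 8893613 to 8898798), a protein of the outer coat, had 82.7, 95.4 and 84.5 CPM in the controls and 74.4, 73.3 and 68.8 CPM in the libraries labelled *svp* RNAi. Every library of the latter group was below every control. The log2 fold change was -0.28 (95% interval -0.68 to 0.12, SE 0.17, adjusted p = 1.00 in edgeR), and in the 6 fits that each left out 1 library it was between -0.30 and -0.21. In FPKM the groups overlapped.

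*Tango1* (FBgn0031842; chromosome 2L from 6649388 to 6654574), which encodes a receptor that loads large cargo such as collagen at ER exit sites, had 117, 119 and 117 CPM in the controls and 145, 123 and 135 CPM in the libraries labelled *svp* RNAi. The controls agreed within 1.13 CPM (SD) and lay below the other group, but the margin to *svp* RNAi replicate 2 was narrow. The log2 fold change was 0.19 (95% interval -0.20 to 0.58, SE 0.17, adjusted p = 1.00 in edgeR), and in FPKM the groups overlapped.

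*Sar1* (FBgn0038947; chromosome 3R from 22356685 to 22360711), the GTPase that starts coat assembly, was likewise lowest in *Luc* control RNAi replicate 1 and highest in the other controls, with 157, 319 and 318 CPM in the controls and 194, 265 and 241 CPM in the libraries labelled *svp* RNAi. The fitted log2 fold change was -0.18 (SE 0.32), -0.42 without *Luc* control RNAi replicate 1 and -0.03 without *Luc* control RNAi replicate 2. *Sec13* and *Sec23*, of the outer and inner coat, had log2 fold changes of -0.03 and 0.04.

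For ER-associated degradation the 3 members *Edem1*, *Edem2* and *sip3* had a median log2 fold change of -0.02. *Edem1* and *Edem2* encode proteins that mark misfolded glycoproteins by trimming their sugars, and *sip3* encodes the fly counterpart of the ubiquitin ligase HRD1. Their log2 fold changes were -0.02 (95% interval -0.45 to 0.42), -0.11 (95% interval -0.79 to 0.57) and 0.03 (95% interval -0.45 to 0.50). That of *Edem2* was -0.31 without *Luc* control RNAi replicate 1 and 0.07 without replicate 3 of that group. With sample quality weights it was -0.48, and its adjusted p in limma was 0.0838, the smallest of any member in that fit.

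The variation between libraries exceeded the difference between the groups. The summed level of the members was 5025, 7345 and 7236 CPM in the controls and 6340, 7651 and 6258 CPM in the libraries labelled *svp* RNAi, or 6536 ± 1309 (SD, n = 3) and 6750 ± 782 (SD, n = 3). *Luc* control RNAi replicate 1 was the lowest library for 23 of the 33 members (69.7%), and for 34.9% of all genes tested. This order flipped with the scaling. Relative to library totals alone, *Luc* control RNAi replicate 1 was the highest library for 17 members (51.5%, against 54.7% of all genes tested) and the lowest for 4. As a share of all counts the members took 0.696% in that library, between 0.596% and 0.615% in the other controls and between 0.645% and 0.718% in the libraries labelled *svp* RNAi.

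**Figure D2:**
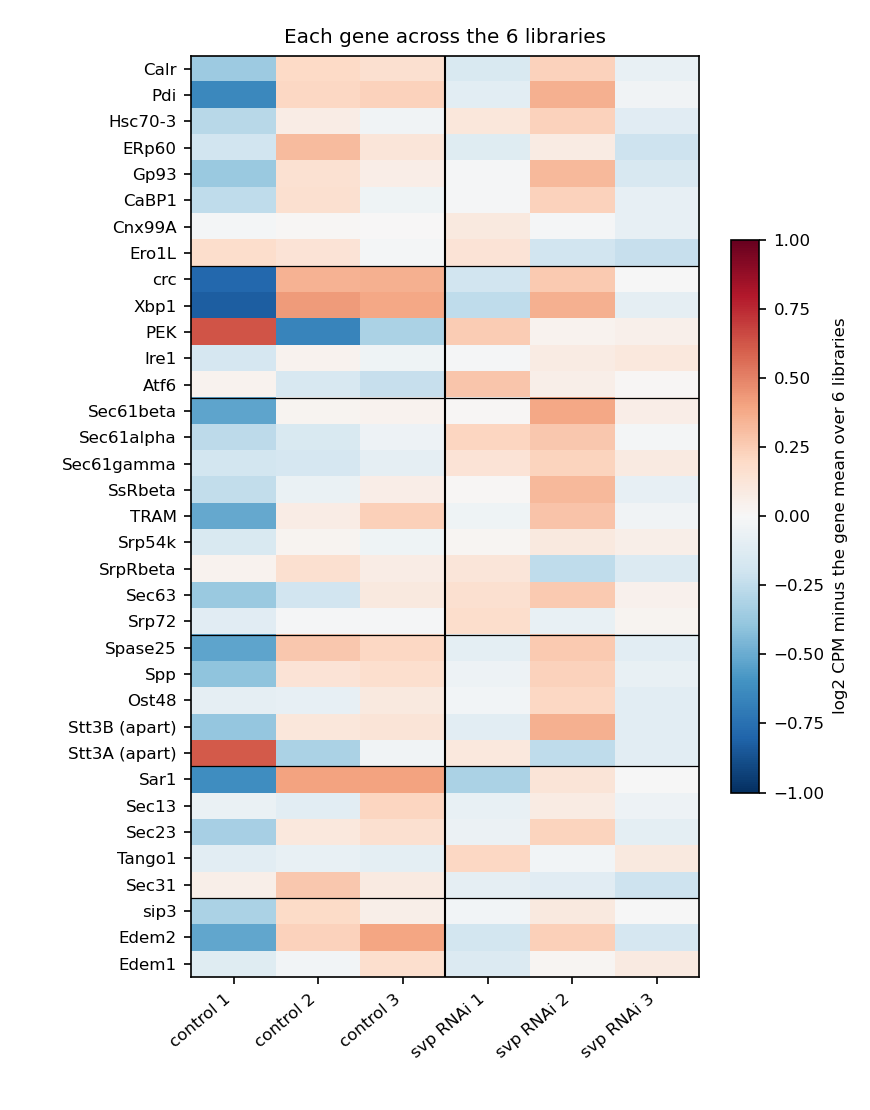
Log2 CPM of each tested gene in each library relative to its mean over the 6 libraries (red above, blue below, on a scale from -1 to 1), with roles divided by lines. The column of *Luc* control RNAi replicate 1 holds the deepest colors in both directions, blue for *Xbp1*, *crc*, *Pdi* and *Sar1* and red for *PEK* and *Stt3A*.

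The contrast between members within that library does not depend on scaling, but the ratio of each gene to the other controls does. In CPM, relative to the mean of the other controls, *Luc* control RNAi replicate 1 was at 0.427 for *Xbp1*, 0.454 for *crc*, 0.493 for *Sar1* and 0.550 for *Pdi*, but at 2.16 for *PEK* and 1.72 for *Stt3A*. Over the members the median of this ratio in CPM was 0.815. In FPKM the same library was at 170 for *Xbp1*, against 244 and 233 in the other controls. For *PEK* it was at 37.2 FPKM, against 9.15 and 11.4 FPKM. The libraries labelled *svp* RNAi were closer to each other, and among them the ratio of the highest to the lowest CPM was at most 1.52, for *Xbp1*.

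Marker genes of other cells also differed between libraries. The summed midgut markers (14 of 14 detected) were at 2566 CPM in *Luc* control RNAi replicate 1, between 448 and 553 CPM in the other controls and between 808 and 1644 CPM in the libraries labelled *svp* RNAi. The summed ovary markers (14 of 14 detected) were between 493 and 1780 CPM in the controls and between 1028 and 2975 CPM in the other group. Hemocyte markers (9 of 9 detected) ranged from 2278 to 6950 CPM and from 2969 to 6422 CPM, oenocyte markers (6 of 6 detected) from 6291 to 23902 CPM and from 12433 to 17880 CPM, and muscle markers (15 of 15 detected) from 489 to 2155 CPM and from 721 to 888 CPM. Markers of Malpighian tubules and neurons were at most 152 and 36.7 CPM. In *Luc* control RNAi replicate 1, where *Xbp1*, *crc* and *Sar1* were lowest in CPM, the midgut sum was highest. The fat body, oenocyte, hemocyte, muscle, Malpighian tubule and neuron sums were all lowest there in CPM. As a share of all counts the fat body, oenocyte, hemocyte and neuron sums stayed lowest there, but the muscle and Malpighian tubule sums did not. The part of these cells in the members' values was not tested.

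**Figure D3:**
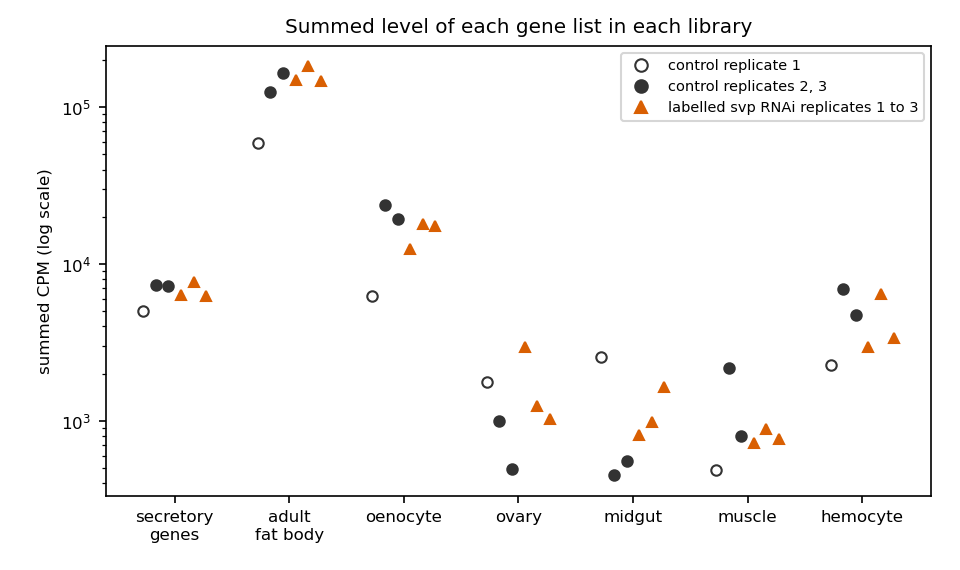
Summed CPM (log axis) of the 34 secretory genes and of 6 lists of cell type markers in each library, with an open circle for *Luc* control RNAi replicate 1, filled circles for the other controls and triangles for the libraries labelled *svp* RNAi. The secretory genes stay between 5025 and 7651 CPM, whereas midgut markers span from 448 to 2566 CPM and ovary markers from 493 to 2975 CPM.

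Another 74 genes of the pathway were taken from lists of folding, translocation, degradation, coat and Golgi genes and of genes regulated by ATF4 or Ire1, and 71 of them were tested. Their median log2 fold change was -0.01, with 32 above 0 and 39 below. Of these genes 0 rose and 1 fell at an edgeR adjusted p under 0.05, against 0.097% of all genes tested. By list, the median was -0.06 for 11 folding genes, 2.1e-05 for 11 translocation and glycosylation genes, -0.0017 for 11 degradation genes, -0.03 for 29 coat and Golgi genes and 0.11 for 9 genes regulated by ATF4 or Ire1. The 7 tested COPI subunits, which return proteins from the Golgi to the ER, had log2 fold changes between -0.11 and 0.04.

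The gene that fell was *sordd2*, named in the tables as *CG32581* (FBgn0052581; chromosome X from 15796908 to 15799162), which was placed in the degradation list because it encodes a ubiquitin ligase of the ER. It had 11.2, 17.7 and 18.1 CPM in the controls and 1.13, 0.859 and 1.62 CPM in the libraries labelled *svp* RNAi. The groups did not overlap, and the mean was 13-fold lower in the latter, a log2 fold change of -3.68 (95% interval -4.56 to -2.81, SE 0.37, adjusted p = 0.0397 in edgeR). DESeq2 gave an adjusted p of 2.5e-17. Of the 6 edgeR fits that left out 1 library, only that without *Luc* control RNAi replicate 1 called the gene (adjusted p = 0.00603), and the adjusted p reached 0.280 in the others.

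*sordd1* (*CG8974*, FBgn0030693; chromosome X from 15793721 to 15796028), the related gene on the same strand, ends 880 bases before the start of *sordd2*. It had 52.5, 76.7 and 67.4 CPM in the controls and 58, 80.3 and 70.2 CPM in the libraries labelled *svp* RNAi, a log2 fold change of 0.08 (adjusted p = 1.00 in edgeR, SE 0.23). Between these genes lies the pseudogene *CR44383*, whose counts were 38, 27 and 32 in the 3 controls but 1, 0 and 0 in the other group. On the other side, *CG15602* and *PGRP-LE* had log2 fold changes of -0.004 and -0.02. How reads shared by *sordd1* and *sordd2* were assigned is not given in the sources used here, so the level of each gene is uncertain, and the hairpin cannot be told apart from the transgene line that carried it, since these differed together between the groups.

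**Figure D4:**
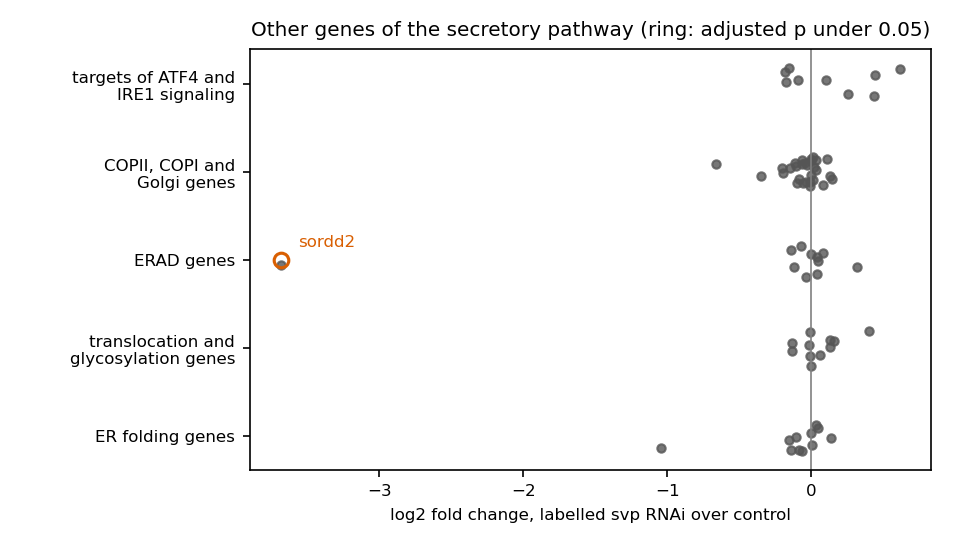
Fitted log2 fold change (libraries labelled *svp* RNAi over *Luc* control RNAi) of the 71 other tested genes of the pathway, 1 point per gene with vertical scatter only for legibility, by list. The ringed gene, *sordd2* at -3.68, is the only one with an adjusted p under 0.05, and the next lowest is *wbl* at -1.04.

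Among the other genes of these lists, the largest departures did not pass the test. *wbl*, which encodes a folding factor known from the follicle cells of the ovary, had 4.51, 14.8 and 7.44 CPM in the controls and 6.30, 2.94 and 3.65 CPM in the libraries labelled *svp* RNAi, a log2 fold change of -1.04 (adjusted p = 1.00 in edgeR, SE 0.52). *Bet1*, a SNARE of ER to Golgi transport, had 24.1, 48.0 and 48.7 CPM against 23.5, 26.1 and 26.7 CPM and a log2 fold change of -0.66 (adjusted p = 1.00 in edgeR, SE 0.30). *trbl*, a pseudokinase gene, had 40.5, 46.8 and 52.6 CPM against 58.4, 71.7 and 58.9 CPM and did not overlap between the groups, with a log2 fold change of 0.43 (adjusted p = 1.00 in edgeR, SE 0.20). *Shmt* (serine hydroxymethyltransferase) and *Thor* (the translation inhibitor 4E-BP) had log2 fold changes of 0.62 and 0.44. These genes were chosen after their values were seen.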

How the data were processed

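Reads were aligned by the authors with TopHat to the Ensembl reference and counted per gene with HTSeq, and the counts were deposited without normalization. The authors deposited FPKM values made from them, which use library totals and, for 6159 of 13475 detected genes (19 members), a length shorter than the listed one (tolerance 1%). Versions, the strand setting and the handling of reads with several positions are not given in the sources used here. No column of other samples was present.

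Groups were compared by the quasi-likelihood test of edgeR 4.0.16 after TMM scaling and its default filter on low counts (R 4.3.3), and p-values were adjusted over 9277 genes by the Benjamini-Hochberg method. DESeq2 1.42.0 and limma 3.58.1 served as alternatives, beside other scalings, filters and pseudocounts, a replicate block and fits without single libraries. Identifiers were matched to the BDGP6 annotation (16959 with unchanged coordinates), from which exon overlaps were taken. The rule for members uses gene names alone, but members and lists were drawn up with earlier results of these data known. Values in every library are given for up to 5 members in each direction with the largest log2 fold change, the 5 highest in FPKM, those not overlapping, and the sensors of the unfolded protein response (18 in all). No sequence of the members is printed. P-values compare the difference between the groups with the spread between 3 pools per group, which edgeR estimates partly from all genes.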

Additional observations from a re-analysis of the deposited data

How the results depend on the processing

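The number of members with an adjusted p under 0.05 was 0 in every alternative tried, and also 0 at an adjusted p under 0.01 or 0.10 in the main edgeR fit. With limma on log2 FPKM (pseudocounts 1 and 0.1), 1 member had an unadjusted p under 0.05, against 7.13% and 6.87% of all genes tested. limma with sample quality weights, chosen after seeing the data, gave 604 calls over all genes, 3 among the other pathway genes (*sordd2*, *Bet1* and *GM130*) and medians of -0.13 for the members, -0.21 for COPII, -0.14 for folding, -0.19 for glycosylation, -0.10 for degradation, 0.07 for translocation and 0.12 for the unfolded protein response. The number of genes called overall was 9, and it was 14 with DESeq2 size factors, 25 without a filter, 55 and 53 with limma on log2 FPKM (pseudocounts 1 and 0.1), 149 with DESeq2, and from 3 to 61 in fits without single libraries. In the fits without single libraries the other pathway genes called numbered between 0 and 1, and the medians ranged from -0.04 to 0.14 for the members, from -0.05 to 0.14 for folding, from 0.07 to 0.14 for the unfolded protein response, from 0.13 to 0.27 for translocation, from -0.08 to 0.13 for glycosylation, from -0.08 to 0.07 for COPII and from -0.07 to 0.07 for degradation.

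Log2 fold changes near 0 changed sign. Over the fits without single libraries, 17 of the 33 members tested took both signs and 16 kept their sign. *Calr* (-0.01) was 0.033 with upper quartile scaling, 0.0013 with the replicate block, 0.043 with limma on FPKM at either pseudocount and from -0.14 to 0.084 without single libraries. *crc* (-0.03) was 0.014, 0.049, 0.092 and from -0.28 to 0.14 in the same fits. *Xbp1* (-0.07) was 0.0054 with the replicate block, 0.048 with limma on FPKM and from -0.35 to 0.12 without single libraries. Without single libraries *PEK* ranged from -0.12 to 0.64 and *Pdi* from -0.10 to 0.24, and with quality weights *Pdi* was -0.22 and *Hsc70-3* -0.0027. The cause was not tested.

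Whether the replicate numbers pair the samples could not be settled with 3 libraries per group. Deviations from the group means correlated at 0.484, 0.513 and -0.298 for replicates 1, 2 and 3. For libraries of unlike number the correlations were between -0.657 and 0.484. With the number as a block edgeR called 27 genes and 0 members. The smallest count of a tested member was 323, for *SrpRbeta* in *svp* RNAi replicate 2.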
